A study of Mus musculus with 12 samples.

Results

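The comparison of ZT14 with ZT8 sets the 3 ZT14 libraries against the 3 ZT8 libraries of a time series of dorsal root ganglia (DRG), 6 of 12 libraries in all. Zeitgeber time (ZT) counts the hours from lights on, so the samples lie 6 h apart; the sources read for this work do not state the hours of light. The members were chosen by the time given in the labels, and the comparison was made across all genes with enough counts to be tested. DRG hold the cell bodies of the sensory neurons of the body, each wrapped in satellite glia, together with myelinating Schwann cells, vessels, macrophages and a connective tissue sheath. All groups were naive male C57BL/6J mice aged 6 to 12 weeks, with no genotype or treatment contrast, and lumbar ganglia L1 to L6 were taken. RNA enriched on oligo(dT) was sequenced as paired reads of 150 bases, with 3 libraries at each of ZT2, ZT8, ZT14 and ZT20. The labels do not say whether each library came from its own animal, so the p-values measure only the spread between these libraries. Library numbers follow the order of the times, and time of day and a batch of collection or preparation cannot be told apart.

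The mammalian clock runs on a transcriptional loop. CLOCK and BMAL1 (the product of Arntl) bind E-boxes in the promoters of the Per, Cry, Nr1d1 and Dbp genes, and the PER and CRY proteins return to block them. REV-ERBα, the product of Nr1d1, represses Arntl, Cry1 and Nfil3 in a further loop, while DBP, TEF and HLF drive genes through D-boxes. In most tissues of the mouse Nr1d1 and Dbp peak in the later part of the day, Per2 peaks near dusk and Cry1 peaks in the night.

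Estimated counts of the 6 libraries summed to between 89.6 and 106.9 in units of 1000000, which corresponds to about 47.9 to 57.1 in the same unit of reads. Levels are given as CPM, counts per 1000000 of the normalized library; because a coverage of 1 gave nearly the same value whatever the length of the gene, CPM can be compared between genes as levels per length. The ganglion markers were present in all 6 libraries: Tubb3 lay between 3480 and 3790 CPM, Prph between 1070 and 1180 CPM and Rbfox3 between 143 and 159 CPM. Skeletal muscle transcripts, most of which do not belong to the ganglion, varied between libraries. The muscle list includes Pvalb, which is also a gene of sensory neurons. The mean log2 CPM of 15 muscle genes was 2.69, 2.36 and 4.51 in the ZT8 libraries and 4.76, 3.24 and 3.43 in the ZT14 libraries, highest in ZT8 replicate 3 and ZT14 replicate 1. Both libraries stayed in the main test.

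No gene of 25809 tested passed an adjusted p of 0.05 in edgeR's quasi-likelihood test (0%). The lowest adjusted p was 0.0887, for Fmo2. At an unadjusted p under 0.05 there were 1627 genes (6.3%), of which 904 were higher at ZT14 (3.5%) and 723 lower (2.8%). The 3 ZT14 libraries lay wholly above the 3 ZT8 libraries for 1449 genes (5.61%) and wholly below them for 1473 genes (5.71%). The median log2 fold change was -0.002, and 49.1% of genes had a value above 0. DESeq2's Wald test on the same counts gave 106 genes (0.411%), 64 higher and 42 lower, while limma-trend gave 0 and limma-voom gave 1, which was Fmo2. The edgeR 95% interval of a gene's log2 fold change was 0.37 wide at the median of the 16227 genes with a mean of at least 1 CPM. Steps of the same length gave 5 genes for ZT8 against ZT2 (0.0194%), 11 for ZT20 against ZT14 (0.0426%) and 1 for ZT2 against ZT20 (0.00387%). The first 2 share libraries with the present comparison.

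**Figure D1:**
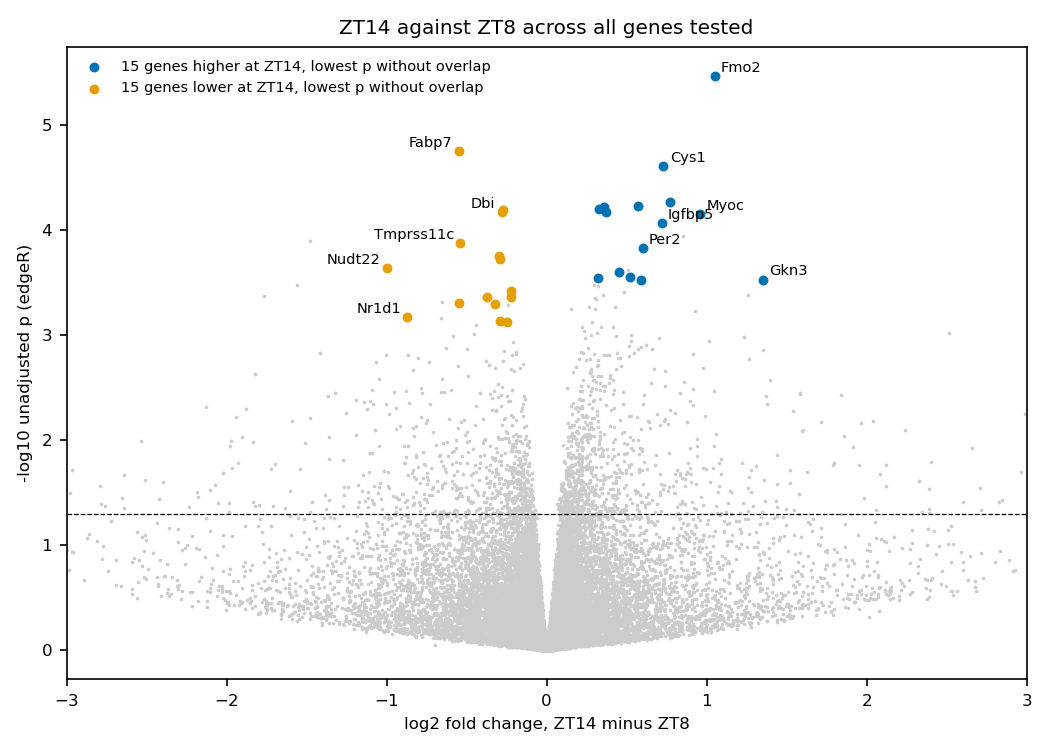
Log2 fold change of ZT14 minus ZT8 (x axis) against −log10 of the unadjusted edgeR p (y axis) for the genes tested, each grey point a gene; 332 genes beyond the x axis limits are not drawn. The dashed line is an unadjusted p of 0.05, coloured points are the 15 genes each way with the lowest p among protein-coding genes without overlap between the groups, and Fmo2 stands highest although no gene passed the adjusted threshold.

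Among the 12 genes of the clock's repressor and output arm, 8 had a log2 fold change above 0 and 4 below, with a median of 0.02. Those past an unadjusted p of 0.05 were Per2 and Bhlhe40 on the higher side and Nr1d1 and Ciart on the lower side. Of 7 genes tested in the list named for the activator arm, Cry1 and Nfil3 were past it, both higher at ZT14. Both encode repressors, and the activator genes Arntl, Clock and Npas2 were not past it. These counts stand beside 3.5% of all genes higher and 2.8% lower. The repressor arm gave 1 higher without ZT8 replicate 1 or 2, where 745 of 26947 and 655 of 26939 genes were higher. Without ZT14 replicate 1 it gave 1 higher and 3 lower, where 792 and 876 of 26965 genes were. It gave 1 lower without ZT8 replicate 3 or ZT14 replicate 2 or 3. In those fits 856 of 26889, 703 of 26869 and 649 of 26860 genes were lower.

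Per2 (chr1:91415982-91459324, minus strand, GRCm38), a core repressor, measured 5.34, 5.59 and 5.47 CPM at ZT8 and 7.56, 8.25 and 9.10 CPM at ZT14. The lowest ZT14 library was above the highest ZT8 library. The log2 fold change was 0.60 ± 0.11 (SE), a fold of 1.52, with an adjusted p of 0.244. Per2 was highest at ZT14 among the 4 times, with 4.50 ± 0.351 CPM at ZT2 and 3.80 ± 0.536 CPM at ZT20 (SD, n = 3).

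Cry1, a partner of the PER proteins in repression, measured 10.2, 10.1 and 10 CPM at ZT8 and 13.1, 12.2 and 12.5 CPM at ZT14. The groups did not overlap, and the difference was 0.32 ± 0.06 in log2 with an adjusted p of 0.292. Nfil3, a repressor acting on D-boxes, went from 6.39, 7.08 and 6.46 CPM to 7.86, 7.47 and 8.22 CPM. It also lay wholly higher at ZT14, by 0.24 ± 0.07 in log2 (adjusted p = 0.577).

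Nr1d1, which encodes the nuclear receptor REV-ERBα (chr11:98767932-98775333, minus strand), was on the other side. Its ZT8 libraries held 42.8, 44.0 and 58.7 CPM and its ZT14 libraries 34.5, 23.6 and 21.8 CPM, so all 3 ZT14 values were below all ZT8 values. The log2 fold change was -0.87 ± 0.18, a fold of 0.55, with an adjusted p of 0.347 in edgeR and 0.00244 in DESeq2. Per2 and Cry1 also passed in DESeq2, with adjusted p-values of 0.00128 and 0.00825, and the other genes of both clock arms did not. Exons of Nr1d1 overlap those of Thra on the opposite strand, and whether the counting used strand is not stated.

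Ciart, an E-box target that represses the loop, held 9.08, 8.14 and 10.3 CPM at ZT8 and 8.86, 5.92 and 5.90 CPM at ZT14. The groups overlapped through ZT14 replicate 1 alone. The log2 fold change was -0.41 ± 0.15 (adjusted p = 0.699). Dbp, an output factor, showed the same library out of place, with 30.5, 28.4 and 37.4 CPM at ZT8 and 33.6, 20.6 and 17.7 CPM at ZT14. ZT14 replicate 1 was the highest of the ZT14 libraries for Nr1d1, Dbp and Ciart and the lowest for Per1 and Per2; it was also the library richest in muscle transcripts. Without it the log2 fold change of Dbp, Ciart and Nr1d1 was -0.75, -0.64 and -1.10, against -0.42, -0.41 and -0.87 with it. Over 27 alternatives the values ran from -0.75 to -0.25 for Dbp, -0.64 to -0.31 for Ciart and -1.10 to -0.71 for Nr1d1. ZT14 replicate 1 was singled out after its values were seen, and leaving out the highest ZT14 library lowers the difference by construction. Whether the muscle RNA of that library has a part in its clock values was not tested.

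The remaining clock genes lay close to 0. Per1 held 21.6 ± 2.33 CPM at ZT8 and 21.9 ± 3.01 CPM at ZT14, and Per3 held 8.55 ± 0.665 and 8.72 ± 0.462 CPM (SD, n = 3 each). Arntl was low at both times, at 2.83 ± 0.360 and 2.63 ± 0.144 CPM, against 6.24 ± 0.178 CPM at ZT2 and 6.39 ± 0.741 CPM at ZT20. The interval of Arntl's log2 fold change ran from -0.35 to 0.14, and that of Clock from -0.19 to 0.24. Cry2, Nr1d2, Tef, Hlf, Rora and Bhlhe41 had log2 fold changes between -0.08 and 0.06. Tef lay wholly higher and Npas2, the paralogue of Clock, wholly lower, at -0.13 ± 0.09. Bhlhe40, which competes for E-boxes, held 27.9, 26.4 and 31.5 CPM at ZT8 and 33.5, 30.9 and 30.9 CPM at ZT14, overlapping by ZT8 replicate 3.

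**Figure D2:**
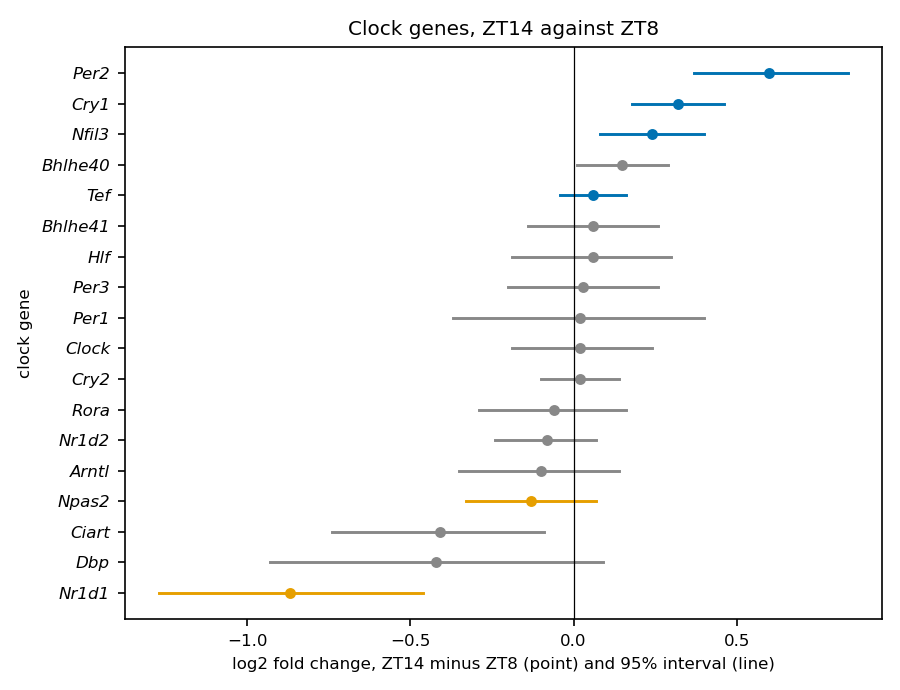
Log2 fold change of ZT14 minus ZT8 (x axis, points) with its 95% interval (lines) for 18 clock genes tested (y axis). Blue marks genes whose 3 ZT14 libraries all lay above the ZT8 libraries, orange those all below, and grey those that overlapped; Per2 is at the top with 0.60 and Nr1d1 at the bottom with -0.87.

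E-boxes were searched as CACGTG, a palindrome, in the 250 bases before each start of a gene in the promoters of RefSeq on build GRCm38.p6. They were found in 5 of the 16 clock genes with a promoter there (31.2%), namely Bhlhe41, Ciart, Cry1, Per1 and Tef, against 6.86% of all 27025 genes with one. The promoters of Ciart, Cry1 and Per1 are shown because the 3 genes carry the same letters and differed in direction: Ciart was lower at ZT14, Cry1 higher and Per1 close to 0. A gene with several RefSeq starts counted if any of them had a match. Capitals mark the E-boxes, and each run ends at the base before a RefSeq start. For Per1 that start lies inside the annotated gene, which begins at chr11:69095217. The windows are chr3:95882229-95882478 (minus strand) for Ciart, chr10:85185055-85185304 (minus strand) for Cry1 and chr11:69098699-69098948 (plus strand) for Per1.
Ciart: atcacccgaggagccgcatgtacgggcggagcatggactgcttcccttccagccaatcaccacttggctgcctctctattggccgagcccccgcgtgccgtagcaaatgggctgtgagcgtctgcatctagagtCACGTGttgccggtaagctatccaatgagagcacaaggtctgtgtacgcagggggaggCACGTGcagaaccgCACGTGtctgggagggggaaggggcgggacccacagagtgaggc
Cry1: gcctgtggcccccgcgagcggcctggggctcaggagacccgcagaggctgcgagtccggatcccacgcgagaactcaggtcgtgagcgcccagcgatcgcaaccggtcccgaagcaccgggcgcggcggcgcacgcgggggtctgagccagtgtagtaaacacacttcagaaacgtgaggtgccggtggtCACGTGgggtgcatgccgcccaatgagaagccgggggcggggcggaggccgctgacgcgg
Per1: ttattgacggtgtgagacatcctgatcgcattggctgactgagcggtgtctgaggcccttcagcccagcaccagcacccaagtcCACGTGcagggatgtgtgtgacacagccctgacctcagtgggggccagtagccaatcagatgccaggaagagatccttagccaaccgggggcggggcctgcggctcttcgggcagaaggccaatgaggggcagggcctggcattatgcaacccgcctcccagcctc
Ciart held 3 matches, and Cry1 and Per1 held 1 each. The D-box letters TTATGTAA, searched on both strands, were in 1 of the 16 promoters, that of Per3, against 0.977% of all genes. A match is a description of the letters in this window.

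The 15 protein-coding genes highest in the comparison, by p among those without overlap and with a mean of at least 1 CPM, had folds of 1.25 to 2.55 and adjusted p-values of 0.0887 to 0.292. For 14 of them ZT14 was the highest of the 4 times, and DESeq2 gave each of the 15 an adjusted p under 0.05. Among them, Myoc, Igfbp5, Adamts1, Fstl3, Angptl7 and Gkn3 encode secreted proteins. The rule that picked these genes used their p-values from these same counts. The range, the place of ZT14 among the times and the DESeq2 calls are therefore a description and no further support.

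Fmo2 (chr1:162874317-162898726, minus strand), a flavin-containing monooxygenase that oxidizes drugs and other sulfur and nitrogen compounds, measured 8.47, 7.82 and 9.58 CPM at ZT8 and 17.6, 19.9 and 16.0 CPM at ZT14. Every ZT14 library was well above every ZT8 library. Its fold was 2.07, a log2 fold change of 1.05 with a 95% interval of 0.78 to 1.32. At ZT2 it held 6.43 ± 0.797 CPM and at ZT20 7.62 ± 0.965 CPM (SD, n = 3). Its adjusted p of 0.0887 in edgeR went below 0.05 in 8 of 27 alternative settings, and its log2 fold change stayed between 0.96 and 1.14 in all of them. Fmo1, the paralogue with the higher level, measured 41.1, 40.3 and 50.1 CPM at ZT8 and 59.1, 57.7 and 53.8 CPM at ZT14, by 0.38 ± 0.09 in log2. Fmo4 stood the other way, with 2.31, 2.2 and 1.61 CPM at ZT8 and 1.45, 1.48 and 1.17 CPM at ZT14 (log2 fold change -0.58 ± 0.22). In both paralogues the groups did not overlap.

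Myoc, which encodes the secreted glycoprotein myocilin, measured 5.17, 4.28 and 6.06 CPM at ZT8 and 10.4, 9.95 and 9.87 CPM at ZT14. Its fold was 1.95 (log2 0.96 ± 0.16, adjusted p = 0.166), and its exons overlap the antisense gene Myocos. Igfbp5, a binding protein that controls the supply of insulin-like growth factors, measured 39.4, 33.7 and 36.6 CPM at ZT8 and 58.6, 63.5 and 58.9 CPM at ZT14. The ZT14 libraries of both genes were tightly grouped and far above ZT8. Adamts1, an extracellular protease, went from 5.50, 5.62 and 5.68 CPM to 7.41, 8.76 and 8.77 CPM, a fold of 1.48. Angptl7, a secreted angiopoietin-like protein, averaged 7.78 ± 1.17 CPM at ZT8 and 11.8 ± 0.174 CPM at ZT14 (SD, n = 3), and Fstl3, which binds activin, at 19.1 ± 1.71 and 23.8 ± 0.115 CPM.

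Nostrin, which traffics endothelial nitric oxide synthase, held 1.83, 1.43 and 1.71 CPM at ZT8 and 2.81, 2.75 and 2.90 CPM at ZT14. Gkn3, a secreted gastrokine, was low, at 0.585, 0.647 and 1.26 CPM at ZT8 and 2.36, 2.12 and 1.89 CPM at ZT14. Its fold of 2.55 was the largest of the 15, with a 95% interval of the log2 fold change from 0.77 to 1.92. Cys1, which encodes the cilium protein cystin, held 5.70, 5.79 and 7.51 CPM at ZT8 and 10.9, 10.2 and 10.5 CPM at ZT14 (log2 0.73 ± 0.11, adjusted p = 0.166). Kcnk5, a background potassium channel, stood at 5.11 ± 0.509 and 6.99 ± 0.311 CPM (SD, n = 3), a fold of 1.37. Rtl8a, Mfap3 and Car13 differed by 0.33, 0.36 and 0.37 in log2, and Plk5 by 0.52.

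**Figure D3:**
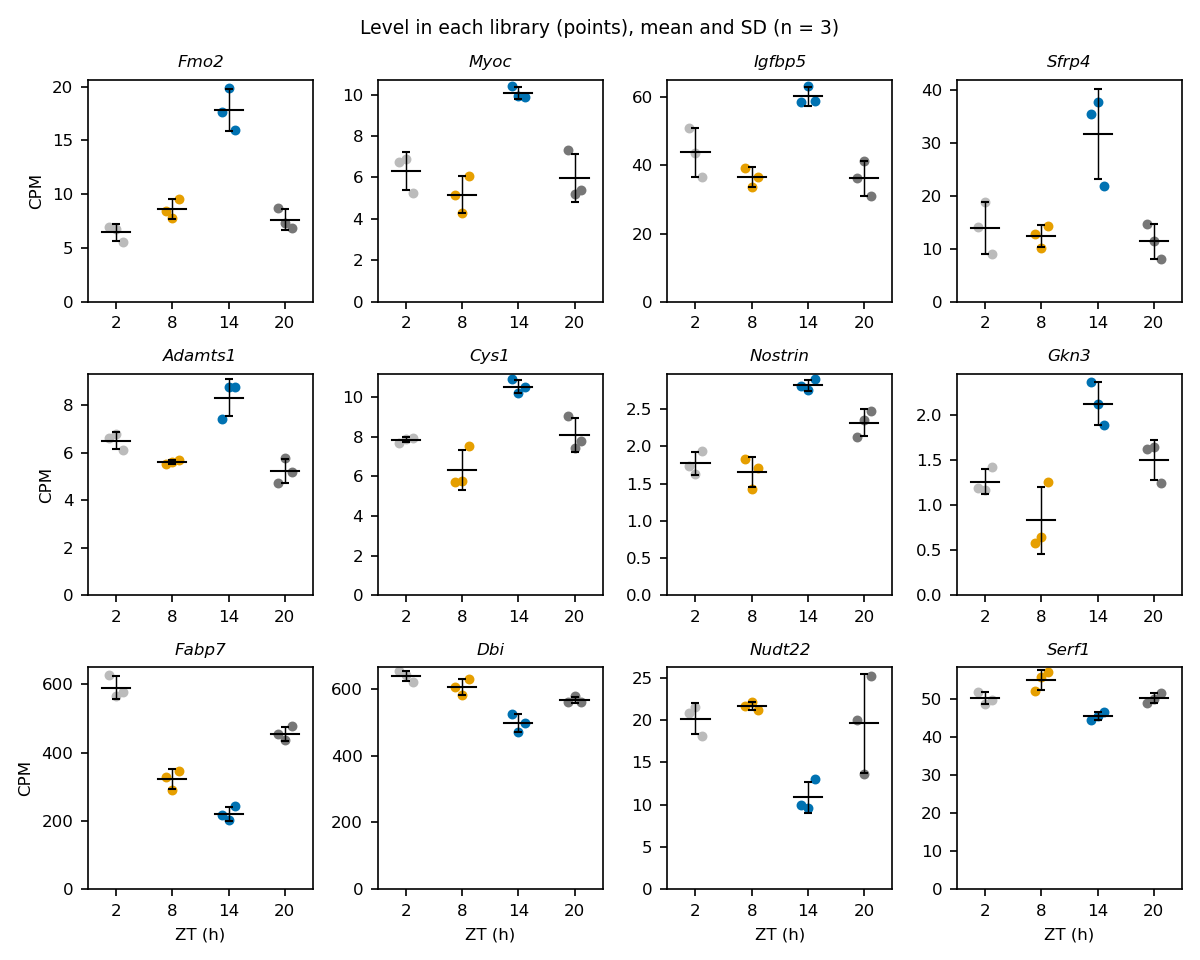
CPM (y axis, from 0) of 12 named genes in each library (points) by ZT in h (x axis), with the mean and SD of 3 libraries (bars). The ZT14 points (blue) of Fmo2, Myoc and Igfbp5 stand above all other times, and those of Nudt22, Dbi, Fabp7 and Serf1 below them.

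The 15 lowest genes by the same rule had log2 fold changes of -0.22 to -1.0 and adjusted p-values of 0.166 to 0.362. ZT14 was the lowest of the 4 times for 14 of them, and DESeq2 gave each of the 15 an adjusted p under 0.05. The same counts picked these genes, so this too is a description and no further support. The lowest p was that of Fabp7.

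Fabp7 (chr10:57784881-57788450, plus strand), the brain lipid-binding protein of glia, measured 328, 291 and 347 CPM at ZT8 and 217, 203 and 242 CPM at ZT14. The groups were far apart relative to their spread, with a log2 fold change of -0.55 ± 0.08 and an adjusted p of 0.166. ZT14 was the trough of a wide range: ZT2 held 590 ± 33.1 CPM and ZT20 held 455 ± 20.5 CPM (SD, n = 3). Gja1, the gap junction protein that couples glia, held 18.9, 18.3 and 17.8 CPM at ZT8 and 16.5, 15.7 and 16.9 CPM at ZT14 (log2 -0.17 ± 0.07). These were the only 2 of 14 satellite glia markers at an unadjusted p under 0.05, where 2.8% of all genes were lower at that level. The median of the 14 was 0.04 and 11 were above 0, among them Glul at 0.02 ± 0.04, Kcnj10 at 0.19 ± 0.09 and Apoe at 0.06 ± 0.11. Without ZT8 replicate 1 or ZT14 replicate 2, 1 marker was lower at that level, where 642 of 26947 and 703 of 26869 genes were. Without ZT14 replicate 1 there were 3, in a fit where 3.25% of all genes were lower. Without ZT8 replicate 1 or ZT14 replicate 1, 2 markers were higher. In those fits 745 of 26947 and 792 of 26965 genes were higher at that level. In bulk tissue fewer cells of a type and less RNA per cell cannot be told apart.

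Dbi, the acyl-CoA binding protein that also modulates GABA-A receptors, measured 608, 582 and 631 CPM at ZT8 and 527, 472 and 500 CPM at ZT14. It lay wholly lower at ZT14, by -0.28 ± 0.05 in log2 with an adjusted p of 0.166. Nudt22, a hydrolase of UDP-sugars, measured 21.7, 22.2 and 21.2 CPM at ZT8 and 10, 9.55 and 13.0 CPM at ZT14. Its fold of 0.50 was the largest of the lower set, though the ZT20 libraries spread widely, at 19.6 ± 5.84 CPM (SD, n = 3). Xpa, which recognizes DNA damage in nucleotide excision repair, averaged 15.8 ± 0.896 CPM at ZT8 and 12.9 ± 0.371 CPM at ZT14, and Tipin, a partner of TIMELESS at replication forks, at 9.71 ± 0.279 and 7.50 ± 0.166 CPM. Xpa exons overlap those of Ncbp1 on the opposite strand. Sat1, which acetylates polyamines, went from 97.8, 98.0 and 96.3 CPM to 74.6, 83.0 and 88.7 CPM, and Ndufc1, a subunit of respiratory complex I, differed by -0.22 ± 0.04 in log2.

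Larger folds were found at low or uneven levels. By the size of the fold among genes with an unadjusted p under 0.05 and at least 1 CPM, Sfrp4, an extracellular Wnt inhibitor, measured 12.8, 10.1 and 14.4 CPM at ZT8 and 35.5, 37.9 and 22.0 CPM at ZT14. That is a fold of 2.55 without overlap (log2 1.35 ± 0.31, adjusted p = 0.403). Rbp7, a retinol-binding protein of endothelium and adipocytes, held 1.0 ± 0.367 and 2.37 ± 0.223 CPM (SD, n = 3), also without overlap. Myoz2 and Tnnc1, both genes of slow and cardiac muscle, overlapped between the groups; Tnnc1 held 3.77, 9.22 and 1.29 CPM in the ZT14 libraries. On the lower side the largest value was Igsf5, at 32.0, 1.47 and 8.43 CPM at ZT8 and 0.825, 1.70 and 0.690 CPM at ZT14. Its difference of -3.70 ± 1.16 in log2 was -2.21 without ZT8 replicate 1, and its annotated exons overlap those of Pcp4 on the same strand. Evi2b, Kctd16, Nradd and A630089N07Rik had log2 fold changes of -2.06 to -1.13 at levels of at most 4.40 CPM. Evi2b was at -3.99 without ZT14 replicate 2, and Nradd at -0.53 without ZT8 replicate 3 and at -0.25 without the muscle-richest libraries.

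Interferon-stimulated genes encode the antiviral proteins that interferon signalling switches on through a shared promoter element. All but 1 of 16 measured members were below 0, with a median log2 fold change of -0.49 against -0.002 for all genes. An unadjusted p under 0.05 was reached by 6 of 16, all lower, where 2.8% of all genes were lower at that level, and none passed the adjusted threshold. In 11 of 16 the ZT14 libraries lay wholly below the ZT8 libraries, against 5.71% of all genes.

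Usp18, the protease that removes ISG15 from proteins, measured 7.19, 10.5 and 9.68 CPM at ZT8 and 5.15, 5.01 and 4.76 CPM at ZT14. Its log2 fold change of -0.88 ± 0.24 had the lowest p of the list (adjusted p = 0.487). Irf7, which amplifies the response, held 11.4, 15.9 and 15.2 CPM at ZT8 and 9.76, 11.3 and 7.97 CPM at ZT14, without overlap. Rtp4 differed by -0.61 ± 0.21 and Oasl2, of the oligoadenylate synthase family and the most abundant of the 6, by -0.36 ± 0.15. Isg15, a ubiquitin-like modifier, measured 14.6, 14.6 and 14.4 CPM at ZT8 and 10.4, 12.6 and 10.7 CPM at ZT14, and Ifit3 26.4, 31.1 and 30.4 CPM and 23.1, 23.6 and 18.5 CPM; both were wholly lower with p-values above 0.05. Ifi27 was the member above 0, at 0.08 ± 0.04. Library means of the list were 4.04 to 4.22 in log2 CPM at ZT8 and 3.61 to 3.81 at ZT14, but at ZT2 and ZT20 single libraries reached 4.38 and 4.25. Without ZT8 replicate 2 or ZT14 replicate 1 the count of 6 became 2, where 629 of 26939 and 876 of 26965 genes were lower. It became 3 without ZT8 replicate 3 or ZT14 replicate 3, where 856 of 26889 and 649 of 26860 genes were. Without ZT20 replicate 2 it was 10, where 735 of 26863 genes were lower. With each library left out in turn the median stayed between -0.52 and -0.39. The mean log2 CPM of 14 macrophage markers was 2.24 ± 0.29 at ZT8 and 2.36 ± 0.13 at ZT14 (SD, n = 3).

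The core letters of the interferon element are GAAA repeated after any 2 bases. They were searched on either strand in the 250 bases before each RefSeq start. A match was found in 7 of the 11 members with a promoter there (63.6%), against 3.46% of all genes. The members were Bst2, Gbp2, Ifit1, Ifit3, Isg15, Oas1a and Rsad2. Promoters of Isg15, Ifit3 and Rsad2 are shown as the shared feature of the list, with matches on either strand in capitals (build GRCm38.p6). The windows are chr4:156200819-156201068 (minus strand), chr19:34583279-34583528 (plus strand) and chr12:26456453-26456702 (minus strand).
Isg15: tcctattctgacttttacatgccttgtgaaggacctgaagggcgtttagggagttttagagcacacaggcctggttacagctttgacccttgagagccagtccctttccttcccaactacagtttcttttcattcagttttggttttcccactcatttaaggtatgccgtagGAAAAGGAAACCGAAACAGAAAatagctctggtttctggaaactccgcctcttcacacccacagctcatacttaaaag
Ifit3: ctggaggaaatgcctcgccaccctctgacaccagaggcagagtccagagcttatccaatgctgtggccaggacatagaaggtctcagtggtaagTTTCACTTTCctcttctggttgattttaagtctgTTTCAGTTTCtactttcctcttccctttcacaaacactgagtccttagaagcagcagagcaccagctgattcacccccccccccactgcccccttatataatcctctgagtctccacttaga
Rsad2: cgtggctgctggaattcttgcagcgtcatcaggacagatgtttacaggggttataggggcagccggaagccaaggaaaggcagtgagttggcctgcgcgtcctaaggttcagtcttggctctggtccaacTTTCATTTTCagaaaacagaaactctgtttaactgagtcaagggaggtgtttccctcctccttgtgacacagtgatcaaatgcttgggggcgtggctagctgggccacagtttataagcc
Members with the letters differed in size. Rsad2, an antiviral radical-SAM enzyme, held 9.35, 8.16 and 8.10 CPM at ZT8 and 5.92, 8.48 and 7.13 CPM at ZT14, which overlap, and Isg15 with a run of overlapping matches differed by -0.37 ± 0.24.

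Immediate early genes are switched on within minutes by activity or growth factor signals. Of 17 tested, 15 were above 0 with a median of 0.23, 7 were higher at an unadjusted p under 0.05 (3.5% of all genes), and 4 lay wholly higher (23.5%, against 5.61% of all genes). Egr3, a zinc-finger factor, measured 5.35, 4.43 and 5.65 CPM at ZT8 and 8.49, 8.04 and 8.55 CPM at ZT14 (log2 0.70 ± 0.16, adjusted p = 0.397). Fos held 4.75, 4.61 and 5.87 CPM and 7.55, 9.73 and 5.84 CPM, overlapping by a single pair of libraries. Egr1 held 5.97, 6.30 and 8.81 CPM and 11.9, 12.4 and 7.85 CPM, and Jun, Arc and Klf4 lay wholly higher by 0.23, 0.34 and 0.41 in log2. Atf3, a marker of injured sensory neurons, overlapped at 0.32 ± 0.30. Mean log2 CPM of the list was 2.98 to 3.23 at ZT8 and 3.31 to 3.45 at ZT14. The count went from 7 to 11 without ZT8 replicate 3, in a fit where 4.83% of all genes were higher. It went to 5 without ZT8 replicate 2, where 655 of 26939 genes were higher. Without ZT14 replicate 2 it was also 5, where 848 of 26869 genes were higher. The serum response element, searched in 1 form on either strand, was in 0 of the 13 promoters of the list, against 0.074% of all genes. The cAMP element TGACGTCA, a palindrome, was in the promoters of Btg2 and Dusp1, 15.4% of the 13, against 1.77% of all genes. The Dusp1 match lay before a start inside its annotated gene.

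Erythroid genes are markers of red blood cells. Of 13 tested, 12 were above 0, with a median of 0.68, and none passed the adjusted threshold. An unadjusted p under 0.05 was reached by 8, all higher, against 3.5% of all genes, and 7 lay wholly higher (53.8%, against 5.61% of all genes). Hba-a1 measured 804, 757 and 841 CPM at ZT8 and 1300, 1320 and 1230 CPM at ZT14. Hbb-bs measured 724, 721 and 726 CPM and 1210, 1380 and 1220 CPM, and Alas2, the first enzyme of haem synthesis in red cells, 7.56, 7.55 and 7.20 CPM and 12.9, 14.2 and 13.4 CPM. In these genes the ZT8 values lay close together and the ZT14 values well clear of them. Adjusted p-values were 0.478 to 0.702 in the model that takes 1 spread per gene from all 12 libraries, and Hba-a1 held 988 ± 363 CPM at ZT2 and 353 ± 70.8 CPM at ZT20 (SD, n = 3). In a fit of the 6 libraries alone, 4 genes passed the adjusted threshold, and they were Hbb-bt, Hbb-bs, Hba-a1 and Alas2. Reads of the paired alpha and of the paired beta globin genes can be split between near-identical copies. Summed CPM of the list was 2280 to 2480 at ZT8, 3770 to 4130 at ZT14 and 848 to 1300 at ZT20. Slc4a1, Rhag and Epb42, genes of the red cell membrane, were under 2 CPM and overlapped. The count of 8 went to 3 without ZT14 replicate 2, to 4 without ZT8 replicate 2 and to 5 without ZT8 replicate 1 or 3. In those fits, in that order, 848 of 26869, 655 of 26939, 745 of 26947 and 1298 of 26889 genes were higher at that level. Neutrophil and bone marrow genes overlapped in 13 of 14, with a median of 0.18 (0.01 without ZT14 replicate 2, and between 0.01 and 0.34 with each library left out in turn).

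Enzymes of cholesterol synthesis supply a main lipid of myelin. Of 20 genes of the pathway, 18 were above 0 and 2 below, with a median of 0.10, and none passed the adjusted threshold. At an unadjusted p under 0.05, 8 were higher, against 3.5% of all genes, and 7 were wholly higher (35%, against 5.61%). Msmo1, a sterol demethylase, measured 294, 278 and 298 CPM at ZT8 and 325, 314 and 312 CPM at ZT14 (log2 0.13 ± 0.03, adjusted p = 0.487). Mvd held 83.0, 77.7 and 80.2 CPM and 103, 90.3 and 87.3 CPM, and Insig1, which retains SREBP in the endoplasmic reticulum, differed by 0.13 ± 0.05. Cyp51 was uneven at ZT14, with 93.2, 51.0 and 89.6 CPM. Srebf2, which encodes a factor that drives these enzymes, was at -0.02 ± 0.06. The count of 8 went to 3 without ZT8 replicate 2, to 4 without ZT14 replicate 1 and to 5 without ZT8 replicate 3. In those fits, in that order, 655 of 26939, 792 of 26965 and 1298 of 26889 genes were higher at that level.

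Myelinating Schwann cell markers were above 0 in 12 of 14 with a median of 0.18, and 6 were higher at an unadjusted p under 0.05, against 3.5% of all genes. Fa2h, which hydroxylates the fatty acids of myelin lipids, measured 52.8, 47.8 and 63.1 CPM at ZT8 and 67.6, 67.4 and 67.5 CPM at ZT14 (log2 0.31 ± 0.08, adjusted p = 0.478). Pllp and Mal, both proteolipids of myelin, also lay wholly higher, while Prx, Cldn19 and Mag overlapped. Mbp, a major myelin protein, stood at 0.14 ± 0.11. ZT8 replicate 2 was the lowest library of the whole series for this list, at 6.72 in mean log2 CPM against 6.91 to 7.13 in the other 11. Without it 1 of 14 genes was higher at an unadjusted p under 0.05, where 655 of 26939 genes were, and the median was 0.11. Without ZT14 replicate 2 there were 3, where 848 of 26869 genes were higher. Without ZT8 replicate 3 there were 9, in a fit where 4.83% of all genes were higher. The muscle score of ZT8 replicate 2 was 2.36, among the lower ones.

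Markers of the sheath, connective tissue and vessels also stood above 0. The medians were 0.34 for meninges and nerve sheath (10 of 10 above 0), 0.25 for fibroblasts (11 of 12) and 0.13 for endothelium (14 of 14), with 2, 3 and 3 members higher at an unadjusted p under 0.05, against 3.5% of all genes. Mgp, an inhibitor of calcification, measured 51.8, 42.7 and 56.7 CPM at ZT8 and 85.8, 82.7 and 83.7 CPM at ZT14 (log2 0.74 ± 0.18, adjusted p = 0.431). Pi16, a marker of adventitial fibroblasts, held 2.21, 2.01 and 3.08 CPM and 4.73, 5.01 and 4.05 CPM, and Fbln1 4.53, 3.69 and 7.11 CPM and 10.7, 10.3 and 8.41 CPM. All 3 were wholly higher at ZT14. The fibrillar collagens differed less, with Col1a2 at 0.24 ± 0.10 and Col1a1 at 0.38 ± 0.20. Mfsd2a, the lipid transporter of barrier endothelium, held 35.3, 29.7 and 34.5 CPM and 41.2, 38.6 and 40.6 CPM, and Kdr, the VEGF receptor, differed by 0.25 ± 0.08. Pecam1, Cdh5 and Cldn5, which define endothelium, were between 0.08 and 0.16 and overlapped. The summed level of the fibroblast list was 580 to 953 CPM at ZT8 and 795 to 905 CPM at ZT14, highest in ZT8 replicate 3. Without that library the counts became 6, 9 and 7, where 4.83% of all genes were higher, and without ZT8 replicate 2 they became 2, 1 and 2. The fibroblast count was 5 without ZT20 replicate 2, and the endothelial count 5 without ZT14 replicate 2.

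Adipocyte markers had a median of 0.73 over 11 genes, all above 0, and 3 lay wholly higher (27.3%, against 5.61% of all genes). Yet 1 of them, Cidec, was past an unadjusted p of 0.05, where 3.5% of all genes were higher. Adipoq held 0.259, 0.123 and 0.880 CPM at ZT8 and 2.18, 0.774 and 0.552 CPM at ZT14, highest in ZT14 replicate 1, which was also highest for muscle. Without that library the median was 0.19. Without ZT8 replicate 3 it was 1.31 with 4 genes past that level, in a fit where 4.83% of all genes were higher. The 15 muscle genes themselves had a median of 0.37 and overlapped in every case. That median was -0.21 without ZT14 replicate 1 and 1.02 without ZT8 replicate 3. The genes named above as higher at ZT14 are in part found in connective tissue and vessels, and the part of tissue amount in their values was not tested. Without the muscle-richest libraries of both times, an alternative chosen after seeing the data, the medians were 0.60 for meninges, 0.40 for fibroblasts and 0.17 for endothelium, with 4 genes of each list higher at an unadjusted p under 0.05. In that fit 3.83% of all genes were higher and 3.02% lower at that level. The higher counts were 8 of 17 immediate early genes, 9 of 14 Schwann cell markers, 4 of 13 erythroid genes and 3 of 20 cholesterol genes. Of the 16 interferon-stimulated genes, 1 was lower in that fit, with a median of -0.40.

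**Figure D4:**
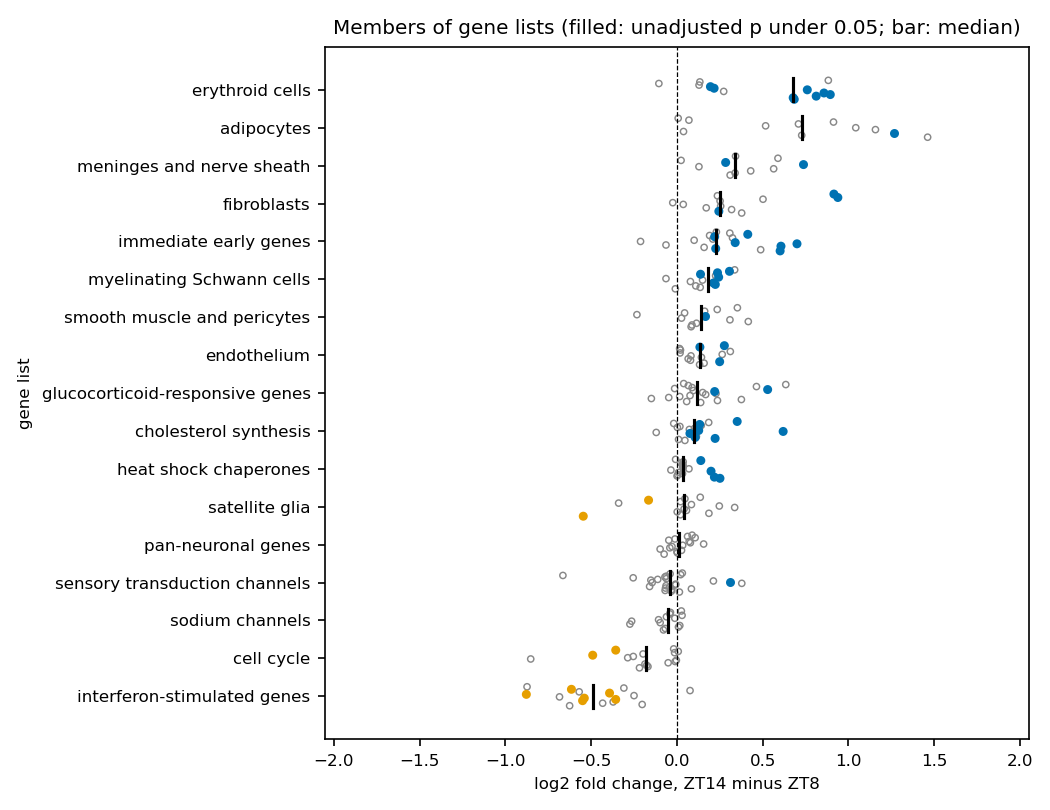
Log2 fold change of ZT14 minus ZT8 (x axis) for each member (points) of 17 gene lists (y axis), with the list median (bar). Filled points had an unadjusted p under 0.05, blue higher and orange lower; erythroid and adipocyte lists stand farthest to the right (0.68 and 0.73) and interferon-stimulated genes farthest to the left (-0.49).

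**Figure D5:**
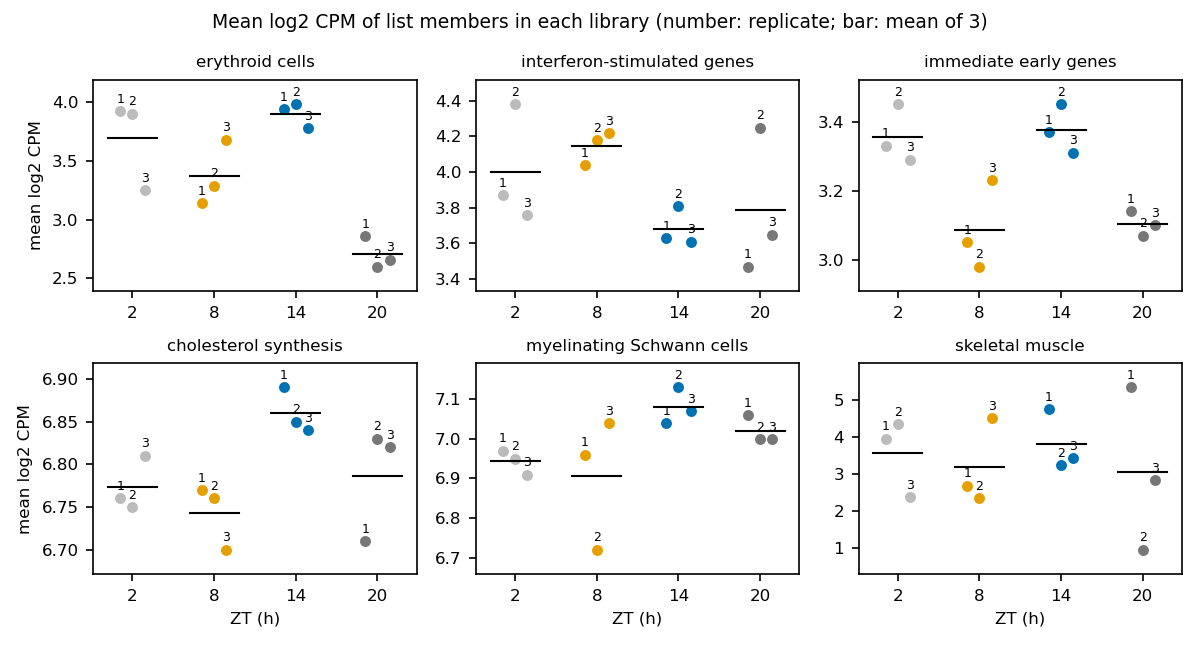
Mean log2 CPM of the members of 6 lists (y axis) in each library (points, numbered by replicate) by ZT in h (x axis), with the mean of 3 libraries (bars). ZT14 libraries lay wholly above ZT8 for erythroid, immediate early and cholesterol genes and wholly below for interferon-stimulated genes, while Schwann cell and muscle scores overlapped.

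The 9 nociceptor genes followed overlapped between the groups. Across 10 neuronal lists, covering ion channels, neuropeptides, receptors, subtype markers and pan-neuronal genes, 173 of 175 members were tested and 8 had an unadjusted p under 0.05 (4.62%), 7 of them higher, where 6.3% of all genes did. DESeq2 called none of them. Among those higher, 4 were of the receptor list: Tnfrsf1b, Tnfrsf1a, Hrh1 and S1pr1. Some members also stand in lists of other cells, as Dcn does for fibroblasts and Kcnj10 for satellite glia, so the count does not describe neurons alone. Scn9a, the sodium channel that sets the firing threshold, measured 79.7, 88.7 and 71.8 CPM at ZT8 and 67.3, 79.4 and 76.3 CPM at ZT14. Scn10a held 160 ± 16.7 and 159 ± 4.55 CPM, and Scn11a 218 ± 21.0 and 209 ± 3.91 CPM (SD, n = 3). The capsaicin receptor gene Trpv1 held 114 ± 6.89 and 116 ± 9.91 CPM, and the irritant receptor gene Trpa1 31.4 ± 5.13 and 30.8 ± 1.41 CPM. Among the peptide genes, Calca (CGRP) held 2720 ± 331 and 2720 ± 10.9 CPM and Tac1 (substance P) 497 ± 18.5 and 500 ± 10.6 CPM. The touch channel gene Piezo2 had the lowest p of the 9 followed, with 100, 103 and 77.9 CPM at ZT8 and 121, 99.3 and 106 CPM at ZT14. The 95% intervals of the log2 fold change of the 9 genes lay within -0.32 to 0.45, and their lowest adjusted p was 0.846. Among the subtype markers, Mrgprx1, an itch receptor, held 26.2, 30.4 and 26.0 CPM and 31.9, 35.8 and 33.6 CPM, without overlap (log2 0.29 ± 0.09, adjusted p = 0.567).

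Systemic signals of the day were followed through 3 lists. Of 20 glucocorticoid-responsive genes, 17 were above 0 with a median of 0.12, and 2 were higher at an unadjusted p under 0.05, against 3.5% of all genes. Fam107a measured 18.7, 20.3 and 17.8 CPM at ZT8 and 24.9, 26.5 and 30.5 CPM at ZT14 (log2 0.53 ± 0.12, adjusted p = 0.395) without overlap. The direct receptor targets Fkbp5 and Tsc22d3 stood at 0.14 ± 0.08 and 0.06 ± 0.07 and overlapped. The receptor element, AGAACA and TGTTCT 3 bases apart, was in 1 of 19 promoters of the list, against 0.0111% of all genes. That match was of Sgk1 and lay before a start inside its annotated gene. Heat shock chaperones had a median of 0.03, with 4 of 17 higher at an unadjusted p under 0.05, against 3.5% of all genes. The count was 2 without ZT8 replicate 1 or ZT14 replicate 3, where 745 of 26947 and 780 of 26860 genes were higher. Dnajb1 held 53.0, 58.1 and 57.5 CPM and 63.4, 61.2 and 68.9 CPM, and Hspa1a 11.7, 13.4 and 12.5 CPM and 14.1, 13.2 and 17.3 CPM. Hspa1a and Hspa1b are near-identical copies, and the heat shock letters GAA, TTC and GAA, each 2 bases apart, on either strand, were in the promoters of Hspd1 and Hspe1 (14.3% of 14, against 0.514%), both within 0.04 of 0. Cirbp, a cold-inducible RNA-binding protein that is high at lower body temperature, held 42.2, 37.1 and 41.8 CPM and 35.0, 30.2 and 30.5 CPM, lower by -0.34 ± 0.10 without overlap. Its relative Rbm3 was at 0.02 ± 0.13.

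Whether the step from ZT8 to ZT14 differed from the step of the same length on the other side of the day was tested as the difference between ZT14 minus ZT8 and ZT2 minus ZT20, which share no library. No gene passed an adjusted p of 0.05 in edgeR (0%), with 1409 at an unadjusted p under 0.05 (5.46%), while DESeq2 gave 77, limma-trend 2 and limma-voom 1. The lowest adjusted p was 0.0644, for Fabp7 and Dock9. Fabp7 was lower by -0.55 in the first step and higher by 0.38 ± 0.08 in the second, a difference of -0.92 ± 0.11 in log2. Dock9, an activator of CDC42, measured 28.4, 35.2 and 34.3 CPM at ZT8 and 26.0, 21.6 and 24.5 CPM at ZT14, with 33.9 ± 2.96 CPM at ZT2 and 21.2 ± 1.31 CPM at ZT20 (SD, n = 3). Its difference of steps was -1.12 ± 0.14. Nr1d1 had the largest difference of the named genes, -1.88 ± 0.26 (adjusted p = 0.105), being lower by -0.87 from ZT8 to ZT14 and higher by 1.02 ± 0.19 from ZT20 to ZT2. Fmo2 differed by 1.29 ± 0.18 and Dbi by -0.45 ± 0.06, both with an adjusted p of 0.105.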

How the data were processed

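Polyadenylated RNA of lumbar DRG was measured in 12 libraries, of which the 3 at ZT8 and the 3 at ZT14 are compared. The authors deposited a table of estimated counts per gene, which are not whole numbers. Per the submitters' processing notes HISAT2 2.2.1, StringTie 2.1.5 and build GRCm38.p6 were used; what each was used for, and the step that made the table, is not stated there. In each library the value at a coverage of 1 was 16.4 to 17.24 whatever the length of the gene, so totals are not read numbers, exact depth is unknown and counting error is modelled only roughly. A table of approximate reads was an alternative. The table held 38942 rows; 348 assembled loci without a gene identifier, 0.203% to 0.231% of a library, were left out of library sizes and tests. Of the 38594 rows with an Ensembl identifier, 38462 matched GENCODE M21.

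Values were rounded to whole numbers and tested in R 4.3.3 with edgeR 4.0.16, by its quasi-likelihood method (filterByExpr, TMM, robust fit, 1 model of 4 times over 12 libraries). Adjusted p-values are Benjamini-Hochberg over all 25809 genes tested, from edgeR unless another tool is named; 12785 genes fell below the filter. Folds are ratios from the edgeR fit and log2 fold changes are given ± SE. DESeq2 1.42.0 and limma 3.58.1 were alternatives, as were other scalings and filters, the 6 libraries alone, a replicate block, a muscle covariate and each library left out in turn. The code was tested on simulated data. Tables and figures used Python 3.11.15, pandas 2.3.3 and matplotlib 3.10.9.

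The comparison and the 44 gene lists were chosen with earlier results of these data known, so lists are described by counts and medians and carry no test. Genes were named by rule: 15 each way with the lowest p among protein-coding genes of at least 1 CPM without overlap, all clock genes, 4 genes of each list by p, the nociceptor and ganglion genes, and the 5 largest folds each way. List members named beyond those 4, the genes shown with promoters, and Dock9 were chosen after their values were seen. A few members of the lists are counted but not reported by name here.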

Additional observations from a re-analysis of the deposited data

Results flagged for a closer look

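Assembled loci without a gene identifier, which no comparison used, took at most 0.231% of a library over the 12 libraries; they stand here as a signal outside the main measurement, and their share lay between 0.203% and 0.225% in the ZT8 and ZT14 libraries.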

How the results depend on the processing

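The count of genes that differ between ZT14 and ZT8 was 0 in 16 of 27 alternatives. It was 1 with no filter on low counts, with limma-voom, with approximate read numbers and with nuclear protein-coding genes only (Fmo2 in each), 3 with the muscle score as a covariate (Myoc, Fmo2 and Cys1), 4 with the 6 libraries alone, and 106 with DESeq2. Without the muscle-richest libraries of ZT8 and ZT14, added after seeing the data, it was 5, including Cys1. Leaving out each library gave 0 to 4, with 4 without ZT8 replicate 3 (Cys1, Gkn3, Fmo2 and Gm5905), 2 without ZT20 replicate 1 (Arap2 and Fmo2) and 1 without ZT14 replicate 1 (Mir671). The cause of these moves was not tested.

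For the difference between the steps, 13 of 26 alternatives gave 0. The count was 2 with no filter, with at least 1 CPM in 3 libraries, with limma-trend and with approximate reads (Fabp7 and Dock9 in each), 1 with limma-voom, 4 with nuclear protein-coding genes (Fabp7, Dock9, Fmo2 and Dbi), 77 with DESeq2 and 1 (Nr1d1) without the muscle-richest libraries. Leaving out each library gave 0 to 4, with 4 without ZT14 replicate 1 and 1 without ZT8 replicate 1, ZT8 replicate 2 or ZT14 replicate 3.

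With the replicate number as a block the counts were 0 (lowest adjusted p 0.0876) and 1 (Fabp7). Deviations of same-numbered libraries correlated above 0.1 in 7 of 18 pairs, from -0.412 to 0.452. Of the 12 libraries, 5 correlated best with their own number. The labels do not say what a number shares. Differently numbered libraries rich in muscle transcripts also correlated, as ZT8 replicate 3 with ZT14 replicate 1 (0.499), so these values cannot decide whether the numbers pair the libraries.

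Of 145 genes followed, 123 kept their direction in every alternative, and 46 of 3908 values turned. All that turned had small log2 fold changes or low counts. Without the muscle-richest library of each time Apoe was -0.04, Arntl 0.01, Bhlhe41 -0.07, Hspe1 -0.03, Rbm3 -0.14, Rhag 0.47 and Top2a 0.08. Without those of ZT8 and ZT14 alone Apoe was -0.04, Arntl 0.01, Bhlhe41 -0.07, Hspe1 -0.04, Rbm3 -0.14, Rhag 0.47 and Top2a 0.07. With the muscle covariate Scn10a was 0.03, Srebf2 0.01 and Trpa1 0.04, with upper-quartile scaling Tac1 was -0.01, and Rhag was 0.30 in limma-trend and 0.47 in limma-voom. With each library left out in turn the ranges were -0.07 to 0.18 for Apoe, -0.04 to 0.11 for Bhlhe41, -0.01 to 0.16 for Cldn5, -0.02 to 0.07 for Clock, -0.01 to 0.04 for Cry2 and Glul, -0.06 to 0.18 for Hlf and -0.01 to 0.06 for Hspd1. They were -0.10 to 0.10 for Per1, -0.01 to 0.09 for Per3, -0.06 to 0.11 for Rbm3, -0.63 to 0.76 for Rhag, -0.09 to 0.07 for Scn10a, -0.12 to 0.02 for Scn11a and -0.06 to 0.01 for Srebf2. For Tac1, Trpa1, Trpv1 and Tsc22d3 they were -0.02 to 0.03, -0.16 to 0.08, -0.06 to 0.06 and -0.02 to 0.11.
Exact depth is unknown, so no detection limit is given.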

Other observations

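Proliferation genes were low in the ganglion and mostly below 0. Of 16 cell cycle genes, 15 were below 0 with a median log2 fold change of -0.18. At an unadjusted p under 0.05, 2 were lower, against 2.8% of all genes. Without ZT8 replicate 1 the count was 1, where 642 of 26947 genes were lower. Mcm5, a subunit of the replicative helicase, measured 2.94, 2.81 and 3.19 CPM at ZT8 and 2.50, 2.24 and 2.24 CPM at ZT14, and Cenpa, the centromeric histone, 2.58, 2.15 and 2.24 CPM and 1.80, 1.67 and 1.49 CPM. Neither overlapped, while Mki67 and Top2a, at about 1 CPM or less, did. Without the muscle-richest libraries the median of the list was -0.04.

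Of 15 genes under insulin and FOXO control, 10 were above 0, with a median log2 fold change of 0.03. At an unadjusted p under 0.05, 2 were higher and 2 lower, against 3.5% and 2.8% of all genes. The higher count went to 0 without ZT8 replicate 2 or ZT14 replicate 3 and to 1 without ZT8 replicate 1 or ZT14 replicate 2. In those fits, in that order, 655 of 26939, 780 of 26860, 745 of 26947 and 848 of 26869 genes were higher. Ccng2, a FOXO target, measured 21.8, 19.9 and 20.4 CPM at ZT8 and 18.6, 17.3 and 18.0 CPM at ZT14, and Pik3ip1, an inhibitor of PI3-kinase, 87.6, 94.6 and 93.7 CPM and 84.5, 77.4 and 80.1 CPM; both lay wholly lower. Foxo1 and Trib1 lay wholly higher, by 0.15 ± 0.06 and 0.31 ± 0.12 in log2. Adjusted p-values of the 4 were 0.431 to 0.735 in edgeR. Among inflammatory mediator receptors, the TNF receptor genes Tnfrsf1a and Tnfrsf1b were wholly higher at ZT14, by 0.16 ± 0.07 and 0.24 ± 0.09 in log2 (adjusted p = 0.781 and 0.702). Cd163, a scavenger receptor of perivascular macrophages, held 1.68, 1.97 and 1.85 CPM at ZT8 and 2.2, 3.17 and 2.75 CPM at ZT14, and Trem2 0.901, 0.893 and 1.36 CPM and 2.32, 1.45 and 1.72 CPM, both without overlap. The macrophage list had a median of 0.07, which ran from -0.03 (without ZT8 replicate 1) to 0.29 (without ZT8 replicate 3), and 2 of 14 were higher at an unadjusted p under 0.05 (3.5% of all genes). That count was 5 without ZT8 replicate 3, in a fit where 4.83% of all genes were higher. It was 1 when ZT8 replicate 1, ZT8 replicate 2 or ZT14 replicate 1 was left out. In those fits, in that order, 745 of 26947, 655 of 26939 and 792 of 26965 genes were higher.

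Of the mitochondrial transcripts, mt-Nd4 measured 563, 764 and 864 CPM at ZT8 and 1100, 881 and 1010 CPM at ZT14, without overlap, and mt-Nd4l, its neighbour on the same transcript, 8430, 8690 and 9360 CPM and 8240, 8110 and 7760 CPM. They differed by 0.45 ± 0.17 and -0.13 ± 0.05 in log2, in opposite directions (adjusted p = 0.712 and 0.748). Nuclear copies of mitochondrial genes can share their reads.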
